A study of Mus musculus with 100 samples.

Results

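The genes described here are 10 genes of developing heart muscle, Myh6, Myh7, Myl2, Myl3, Myl4, Myl7, Tnnt2, Tnni1, Actn2 and Nppa. They were chosen by name and all 10 were found among the 23109 gene-level entries of 37 mouse RNA-seq tables. The study concerns the histone methyltransferases MLL3 and MLL4 in early mouse development. Cultured lines carried Mll3-/- in every group. The reference lines were Mll3-/-;Mll4flox/flox (called flox below) and the compared lines were Mll3-/-;Mll4KI/KI, where KI is a knock-in allele and the 2 KI lines are clones 27 and 48. Embryonic stem cells (ESCs, day 0, kept in 2i+LIF medium) were left to form embryoid bodies (EBs), aggregates that differentiate without LIF, sampled at days 4 and 10. Neural cultures were aggregates given retinoic acid after day 4 and sampled as progenitors at day 8 and as neurons at day 16. Trophectoderm (TE) cultures were sampled at day 6 of doxycycline-induced CDX2 from a lentivirus, with FGF-4, heparin and medium conditioned by fibroblasts. Extraembryonic endoderm (ExEn) cultures, given activin A together with retinoic acid, were sampled at day 5. KI embryos at E8.5 and E9.5 were Mll3flox/KI;Mll4flox/KI;Sox2-Cre and control embryos were Mll3flox/KI;Mll4flox/+;Sox2-Cre. The controls therefore also carried the Mll3 alleles and the Cre, whose promoter is active in the epiblast.

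Sarcomeres are the contractile units of striated muscle, in which myosin filaments pull on actin filaments. Myosin heavy chains are the motors, paired with essential and regulatory light chains, and troponins on the actin filament let calcium switch the pull on. In the mouse heart the embryonic tube expresses atrial and ventricular forms side by side before they separate into chambers, and Nppa marks working chamber muscle as it forms.

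Embryo groups held 3 libraries each, the flox reference of the ESC and EB course 1 library per day, and the other groups 2 libraries. The gene-level read totals of the 37 libraries spanned 18.9 to 59.9 M (mega-reads). Embryo libraries lay between 20.1 and 26.9 M, while the ESC and EB course spanned 18.9 to 25.8 M. Levels are reads per M of that total (CPM), so that 3 reads make 0.16 CPM at the lowest depth and 0.05 CPM at the highest. Nothing in the labels states that replicates came from separate litters or differentiations, so p-values measure the spread between these libraries, which may be partly technical. A gene is termed called where edgeR's quasi-likelihood test gave a Benjamini-Hochberg adjusted p under 0.05, over all genes of the fit. The E8.5 control library with replicate number 2 had the highest level of its group for all 10 genes, as had KI replicate 1 at E8.5 and at E9.5.

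Promoter sequences of all 10 genes were matched in RefSeq (build GRCm38.p6), in 14 promoter entries. Of the 4 motifs searched on both strands in the 250 bases before the annotated start, the GATA motif AGATAA or TGATAA lay in 4 of the 14 entries (Myl2, Myl7, Tnnt2, Nppa) against 16.6% of all 32851 promoters. The E-box CAGCTG lay in 5 entries (Myl2, Tnnt2, both entries of Tnni1, Nppa) against 13.0% of all. TATAAA lay in 2 entries (Myl2, Nppa) against 12.4%, and the MEF2 motif TAAAAATA or TATTTATA, the second of which holds TATAAA on its other strand, in the 2 overlapping entries of Tnni1 against 3.9%. No match says only that these letters were not in this window. The 4 sequences below are shown because Myl7 had the smallest adjusted p at EB day 10, Tnnt2 moved with the myosins, Nppa did not follow them, and Myh6, which took the most reads there, held none of these motifs. They run 5′ to 3′ up to the base before the start, and capitals mark the motif matches:
Myl7, chr11:5898783-5899032, minus strand: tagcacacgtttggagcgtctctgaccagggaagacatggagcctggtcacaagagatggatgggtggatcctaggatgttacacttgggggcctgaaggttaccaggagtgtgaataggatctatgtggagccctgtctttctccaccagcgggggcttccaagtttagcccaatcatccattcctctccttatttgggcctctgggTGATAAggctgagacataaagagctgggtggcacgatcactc
Tnnt2, chr1:135836084-135836333, plus strand: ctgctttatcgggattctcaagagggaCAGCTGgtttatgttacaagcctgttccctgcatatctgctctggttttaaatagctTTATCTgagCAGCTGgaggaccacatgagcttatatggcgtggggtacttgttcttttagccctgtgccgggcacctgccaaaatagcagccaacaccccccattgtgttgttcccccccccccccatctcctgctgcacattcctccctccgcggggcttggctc
Nppa, chr4:148000472-148000721, plus strand: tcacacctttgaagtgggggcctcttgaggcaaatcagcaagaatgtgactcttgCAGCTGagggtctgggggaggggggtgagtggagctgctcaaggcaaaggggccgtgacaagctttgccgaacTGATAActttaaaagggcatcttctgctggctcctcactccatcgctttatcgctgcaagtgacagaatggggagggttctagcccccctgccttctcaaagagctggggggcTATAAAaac
Myh6, chr14:54966608-54966857, minus strand: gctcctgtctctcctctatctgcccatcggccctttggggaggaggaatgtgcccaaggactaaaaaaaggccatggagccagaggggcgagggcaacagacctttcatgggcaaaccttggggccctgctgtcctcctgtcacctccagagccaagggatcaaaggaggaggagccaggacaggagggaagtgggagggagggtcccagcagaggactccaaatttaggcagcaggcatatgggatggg

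Across the 18 groups the 10 genes were most abundant in EBs at day 10 of the flox line and in embryos, and low in the stem cell and neural groups. Their summed level was 2413 CPM in the flox EB library of day 10 and 310 CPM on average in KI (256 and 363). It averaged 722 CPM in E8.5 controls, 1160 in E8.5 KI, 429 in E9.5 controls and 1207 in E9.5 KI. In the ESC, neural, TE and ExEn groups it lay between 3.27 and 42.3 CPM. Fewer cells of a type and less RNA per cell cannot be told apart in bulk RNA.

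**Figure D1:**
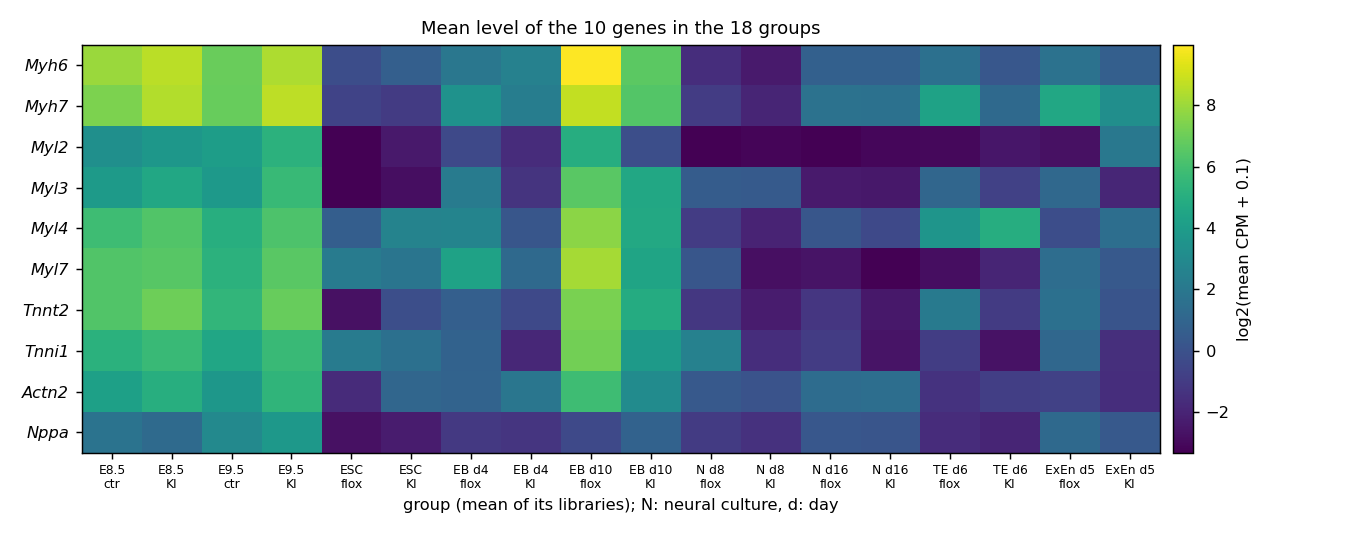
Mean level of each gene (rows) in each of the 18 groups (columns), coloured by log2 of the mean CPM plus 0.1. The brightest block joins the embryo groups and EB day 10, where the flox column is brighter than the KI column in every row but that of Nppa.

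Of 10 genes, 8 had their highest group mean in the flox EB library of day 10, while Myl2 and Nppa were highest in E9.5 KI embryos, at 37.2 and 13.3 CPM. For Myh7, Tnnt2 and Actn2 that EB library lay within the range of the next group, so the first 2 places in their order do not differ beyond the spread. The same holds for Myl2, where that library lay, at 31.3 CPM, within the range of E9.5 KI. The libraries of E8.5 KI and E9.5 KI overlapped for 7 genes and did not for Myl2, Myl3 and Nppa. The group means of Nppa ran from 0.05 CPM in flox ESCs to 13.3 CPM. Per length, in the deposited RPKM, Myl7 was the highest of the 10 in the flox EB library of day 10 (388) and in E9.5 controls (49.5), ahead of Myl4 (184) in the first and Tnnt2 (28.8) in the second.

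At EB day 10 the sarcomere genes were lower in both KI clones than in the flox library, and Nppa was not. Of the 10 genes, 9 were called lower, while 4.96% of the 16567 genes tested were called lower in this comparison. The same 9 lay below flox in both clones, against 35.9% of the genes tested. The flox group has 1 library, so its spread was taken to be that of the KI clone pairs of the course. The pair of day 10 differed more than those of days 0 and 4, with a chi-square per degree of freedom of 41.7 over genes against 6.08 and 5.66, so the pooled spread is not that of day 10 alone. In a fit of only the 3 day 10 libraries, chosen after seeing the data, edgeR called 4 of the 10 genes lower (Myl2, Myl3, Myl4 and Myl7, adjusted p between 0.0451 and 0.0484), against 0.173% of all genes, and the other 5 had adjusted p between 0.0559 and 0.0828. DESeq2 called the same 9 there, against 1.88% of all genes. The median log2 fold change of the 10 genes was -2.89 and that of all genes tested 0.01.

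Myh6 encodes alpha myosin heavy chain, the fast motor of atrial and adult mouse heart muscle. It was at 1004 CPM in flox and at 119 and 76.9 CPM in KI clones 27 and 48, a log2 fold change of -3.36 (SE 0.26, adjusted p = 0.00206 by edgeR). Myh7, the beta heavy chain of fetal ventricle and slow skeletal muscle, was at 435 CPM in flox and at 101 and 67.7 CPM in KI, a log2 fold change of -2.37 (SE 0.31, adjusted p = 0.0105 by edgeR). Both clones were below flox for both motors, and clone 48 was the lower of the 2. These 2 genes lie next to each other and are near-identical in much of their sequence, so the split of reads between them is uncertain.

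Among the regulatory light chains, Myl7 (atrial) was at 288 CPM in flox and at 23.2 and 19.4 CPM in KI, with a log2 fold change of -3.76 (SE 0.17, adjusted p = 0.000268 by edgeR). Myl2 (ventricular) was at 31.3 CPM in flox and at 0.614 and 1.00 CPM in KI, 12 and 24 reads, with a log2 fold change of -5.25 (SE 0.52, adjusted p = 0.00218 by edgeR). Myl2 showed the largest decrease of the 10 genes, 38.8-fold on mean CPM. Among the essential light chains, Myl4 (atrial and fetal) was at 205 CPM in flox and at 29.2 and 22.1 CPM in KI, 7.99-fold lower on mean CPM (adjusted p = 0.0036 by edgeR). Myl3 (ventricular and slow skeletal) was at 93.8 CPM in flox and at 25.0 and 25.4 CPM in KI, a log2 fold change of -1.90 (SE 0.26, adjusted p = 0.00681 by edgeR). Myl3 thus had the smallest of the 9 decreases, and its clones were the closest together.

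Tnnt2 anchors the troponin complex to tropomyosin in heart muscle. It was at 158 CPM in flox and at 34.9 and 23.1 CPM in KI, a log2 fold change of -2.45 (SE 0.21, adjusted p = 0.00175 by edgeR). Tnni1, the slow skeletal troponin I that the embryonic heart uses before cardiac troponin I, was at 139 CPM in flox and at 18.4 and 12.2 CPM in KI, a log2 fold change of -3.19 (SE 0.23, adjusted p = 0.00108 by edgeR). Actn2 cross-links actin filaments at the Z-disc, and it was at 58.0 CPM in flox and at 11.0 and 6.04 CPM in KI, a log2 fold change of -2.77 (SE 0.30, adjusted p = 0.00322 by edgeR). In all 3 genes clone 48 was below clone 27, and both clones were below flox.

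Nppa encodes atrial natriuretic peptide, a hormone and no sarcomere protein. It was at 0.659 CPM in flox (17 reads) and at 1.23 and 2.21 CPM in KI (24 and 53 reads), a log2 fold change of 1.38 (SE 0.66, adjusted p = 0.233 by edgeR). Both clones lay above flox, at levels under 3 CPM, and 36.9% of the genes tested also had both clones above flox. Without clone 27 the log2 fold change was 1.73 and passed the test, but in a fit with 1 library on each side that called 4548 genes in place of 1732, so it is not counted as a call.

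**Figure D2:**
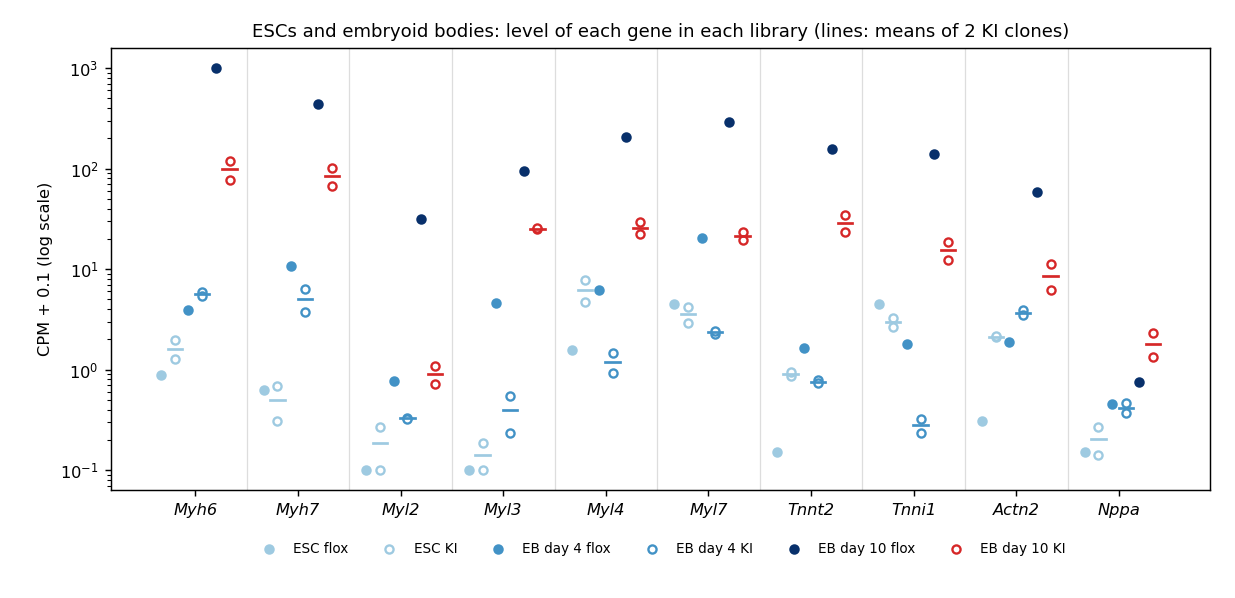
CPM plus 0.1 on a log axis for each gene in each ESC and EB library, with filled points for flox (1 library a day), open points for KI clones 27 and 48, and lines at the KI means. At day 10 both KI points lie below the flox point for 9 genes, for example 119 and 76.9 against 1004 CPM for Myh6, and above it for Nppa.

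Before day 10 the levels were low, and single days were not among the comparisons fitted, so the values are given as a description. In ESCs the summed level was 12.0 CPM in flox and 17.4 and 17.5 CPM in KI. At day 4 it was 51.6 CPM in flox and 17.9 and 20.4 CPM in KI, with Myl7 at 20.3 CPM in flox and 2.15 and 2.35 CPM in KI. Myl3 at day 4 was at 4.55 CPM in flox and at 0.137 and 0.452 CPM in KI, 3 and 10 reads. Actn2 went the other way, at 1.79 CPM in flox and 3.79 and 3.39 CPM in KI, and Myh6 stood at 3.83 CPM in flox and 5.80 and 5.34 CPM in KI. The genes therefore did not share 1 order of flox and KI at day 4.

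In KI alone, all 10 genes were higher at day 10 than at day 4, against 35.4% of the genes tested that were called higher. Their log2 fold changes ran from 1.15 for Actn2 and 1.73 for Myl2 to 6.26 for Tnni1 and 6.30 for Myl3 (edgeR). Myl2 went from 0.228 and 0.226 CPM to 0.614 and 1.00 CPM in clones 27 and 48. Without the day 4 library of clone 48 the calls of Myl2, Actn2 and Nppa were lost, and that of Myl2 also without the day 4 library of clone 27 or the day 10 library of clone 48. When the effect of KI was averaged over days 0, 4 and 10, 0 of 10 genes were called by edgeR, against 0.730% of all genes in either direction. At an unadjusted p under 0.05 there were 6 (Myh7, Myl2, Myl3, Myl7, Tnnt2 and Tnni1), and DESeq2 called 4 (Myh7, Myl3, Myl7 and Tnni1). The averaged fit called 121 genes in all, and 3 of the 10 (Myl4, Myl7 and Tnni1) were called when all ESC libraries were left out. Without the flox ESC library alone 6 were called, and without the flox day 4 library 1, Myh7.

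In E9.5 embryos the sarcomere genes were higher in KI than in controls. Of 10 genes, 8 were called higher in KI than in controls, against 14.6% of the 15436 genes tested. All 10 had every KI library above every control library, against 22.6% of the genes tested. The median log2 fold change was 1.37 for the 10 genes and 0.01 for all genes. The difference between cultures and embryos was not tested, since genotypes, tissues and fits differ.

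Myh7 was at 129, 125 and 103 CPM in E9.5 controls and at 572, 321 and 319 CPM in KI, a log2 fold change of 1.77 (SE 0.37, adjusted p = 0.00817 by edgeR). Myh6 was at 133, 133 and 102 CPM in controls and at 438, 318 and 208 CPM in KI, a log2 fold change of 1.39 (SE 0.28, adjusted p = 0.00675 by edgeR). For both heavy chains the lowest KI library was above the highest control. Myl3 was at 15.8, 15.7 and 11.5 CPM in controls and at 63.0, 41.4 and 43.2 CPM in KI, the largest log2 fold change of the 10 at 1.78 (SE 0.46, adjusted p = 0.0212 by edgeR). Actn2 was at 14.5, 14.4 and 9.93 CPM in controls and at 59.1, 35.7 and 28.9 CPM in KI, a log2 fold change of 1.67 (SE 0.41, adjusted p = 0.0159 by edgeR). KI replicate 1 was the highest library for these genes, as it was for all 10.

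Tnnt2 was at 47.7, 40.6 and 40.8 CPM in controls and at 156, 101 and 91.6 CPM in KI, a log2 fold change of 1.43 (SE 0.30, adjusted p = 0.00865 by edgeR). Myl7, Myl4 and Tnni1 had log2 fold changes of 1.36, 1.27 and 1.14 (SE 0.32, 0.32 and 0.33), with adjusted p-values of 0.0141, 0.0183 and 0.0303 by edgeR. On mean CPM these 4 genes rose 2.21-fold to 2.70-fold. Myl2 was at 17.8, 16.6 and 16.3 CPM in controls and at 58.6, 23.5 and 29.5 CPM in KI, a log2 fold change of 1.14 that was not called (SE 0.55, adjusted p = 0.162 by edgeR). Nppa was at 6.83, 7.24 and 8.82 CPM in controls and at 21.4, 9.14 and 9.37 CPM in KI, a log2 fold change of 0.81 that was not called (SE 0.70, adjusted p = 0.437 by edgeR). For both genes KI replicate 1 lay far above the other 2 KI libraries, which were closer to the controls. Without that library the log2 fold changes of Myl2 and Nppa were 0.63 and 0.27.

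Leaving out 1 embryo library at a time, between 4 and 8 of the 10 genes were called at E9.5, all upward. The smallest count, without control replicate 3, held Myh6, Myh7, Myl7 and Tnnt2, and 5 genes were called without control replicate 2. Actn2 was the fifth of these. Without control replicate 1 or KI replicate 3, 7 were called. Without KI replicate 1 the log2 fold changes of Myh6 and Myh7 were 1.09 and 1.42, and 6 genes were called. The embryo titles carry numbers that controls and KI share. Within each of the 2 numbers at E9.5 all 10 genes were higher in KI, with median log2 differences of 1.46 and 1.16.

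**Figure D3:**
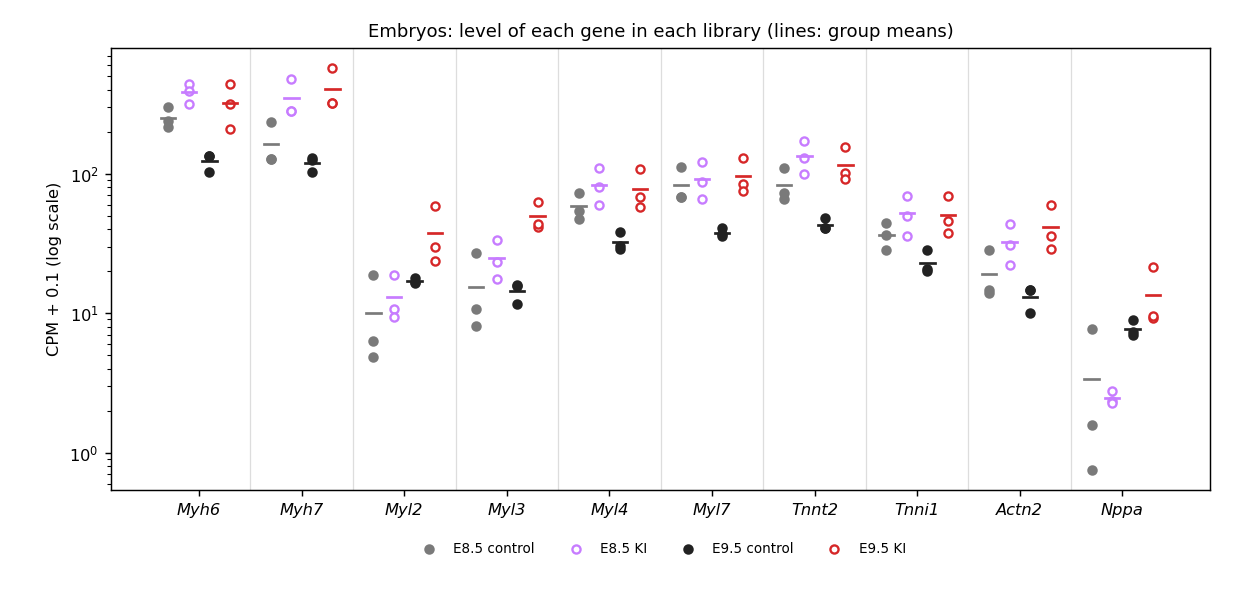
CPM plus 0.1 on a log axis for each gene in each embryo library, with filled points for controls, open points for KI and lines at group means. At E9.5 all KI points lie above all control points for the 10 genes, while at E8.5 the groups overlap for 8 of them.

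At E8.5 the 10 genes did not pass the test. None was called, against 3.63% of all genes called higher, while 2 (Myh7 and Tnnt2) had an unadjusted p under 0.05 with edgeR and DESeq2 called 0. Log2 fold changes were positive for 9 genes and negative for Nppa, and their median was 0.56. Groups did not overlap for 2 genes, Myh6 and Myh7, both higher in KI, against 12.0% of the genes tested. Myh7 was at 127, 234 and 128 CPM in controls and at 481, 280 and 279.7 CPM in KI, with a log2 fold change of 1.09 (SE 0.36, adjusted p = 0.143 by edgeR). Myh6 was at 238, 302 and 217 CPM in controls and at 440, 389 and 317 CPM in KI, with a log2 fold change of 0.60 (SE 0.28, adjusted p = 0.282 by edgeR). For each of them the second control replicate was the nearest control to the KI range.

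The second control replicate of E8.5 weighed most on Nppa and Myl2. Nppa was at 0.647, 7.63 and 1.48 CPM in controls and at 2.65, 2.23 and 2.18 CPM in KI, and its log2 fold change went from -0.51 (SE 0.78, adjusted p = 0.793 by edgeR) to 1.14 without that library. Myl2 was at 4.78, 18.7 and 6.24 CPM in controls and at 18.7, 10.6 and 9.34 CPM in KI, with a log2 fold change of 0.35 (SE 0.58, adjusted p = 0.809 by edgeR). Without that control library 1 of the 10 genes was called, Myl3, with a log2 fold change of 1.41 (adjusted p = 0.0371 by edgeR). Without KI replicate 1, the log2 fold changes of Myl2 and Myl7 were -0.02 and -0.11. Same-numbered embryos differed widely at this stage. Between the first replicates all 10 genes were higher in KI, with a median log2 difference of 1.34. Between the second replicates 6 of 10 were, with a median of 0.13, and between the third 9 of 10, with a median of 0.55. With the title number as a block, again 0 genes were called at E8.5.

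The effect of KI at E9.5 minus that at E8.5 was called for 0 of 10 genes by edgeR or DESeq2, against 6.63% of all genes in either direction, and for 0 without E8.5 control replicate 2. Myl7 had the one unadjusted p under 0.05, at a difference of 1.21 on the log2 scale (SE 0.45, adjusted p = 0.16 by edgeR). In controls, 3 genes fell from E8.5 to E9.5, against 12.1% of all genes called lower. These were Myl7, Myh6 and Tnnt2, with log2 fold changes of -1.20, -1.11 and -1.02 (SE 0.32, 0.28 and 0.30; adjusted p = 0.0285, 0.0222 and 0.0433 by edgeR). None of these 3 calls held without E9.5 control replicate 1, 2 or 3 or without E8.5 control replicate 2, where Nppa was called instead. Without E8.5 control replicate 1, Myh6 and Myl7 were called. In KI embryos, Nppa alone was called between stages, higher at E9.5 by 2.43 on the log2 scale (SE 0.77, adjusted p = 0.04 by edgeR), against 15.9% of all genes called higher. That call was lost whichever KI library was left out, and DESeq2 added Myl2.

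**Figure D4:**
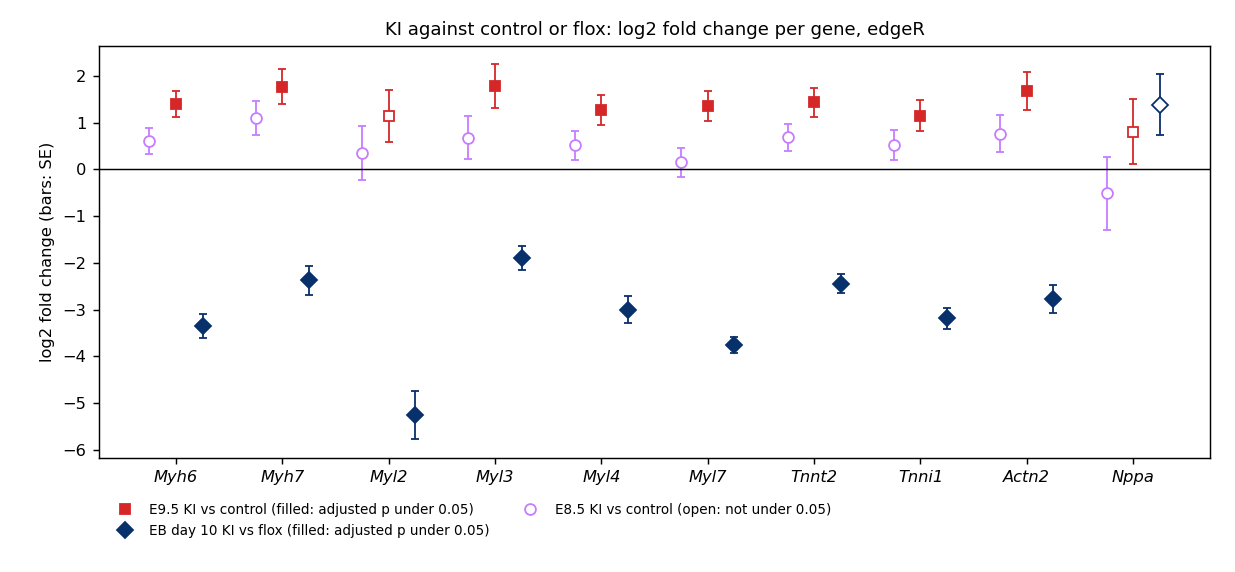
Log2 fold change of each gene with its SE (bars) for KI against control at E8.5 (circles) and E9.5 (squares) and KI against flox at EB day 10 (diamonds), filled where called. For Myh6 the values are 0.60, 1.39 and -3.36, and Nppa is open in all 3 comparisons.

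The mix of related forms was read per length from the deposited RPKM, which divides by transcript length. For Myh6 and Myh7 it rests on the split of reads between near-identical genes, which is uncertain. Myh6 made up 61.4% ± 4.6 (SD, n = 3) of the Myh6 and Myh7 level in E8.5 controls and 52.9% ± 5.2 (n = 3) in E8.5 KI. At E9.5 it was 50.6% ± 0.8 (n = 3) in controls and 44.1% ± 5.2 (n = 3) in KI, and at EB day 10 it was 69.7% in flox and 54.2% and 53.1% in KI. In each of the 3 settings the KI mean was the lower, but exact two-sided permutation tests gave p = 0.2 at E8.5 and p = 0.1 at E9.5, where 0.1 is the smallest p that 3 against 3 libraries allow. The E9.5 groups did not overlap, while KI at E8.5 did overlap its controls.

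The atrial Myl7 made up 90.8% ± 3.8 (SD, n = 3) of Myl7 plus Myl2 in E8.5 controls and 70.5% ± 0.4 (n = 3) in E9.5 controls, with no overlap (exact permutation p = 0.1, the smallest possible). KI embryos stood at 88.5% ± 1.2 (n = 3) and 74.3% ± 4.5 (n = 3), within the range of controls or overlapping it at both stages (exact permutation p = 0.4 and 0.2). Myl4 made up 69.7% ± 3.1 (SD, n = 3) of Myl4 plus Myl3 in E9.5 controls and 61.2% ± 2.5 (n = 3) in KI, without overlap (exact permutation p = 0.1). At E8.5 the Myl4 share was 80.9% ± 6.7 (n = 3) in controls and 77.5% ± 0.5 (n = 3) in KI (exact permutation p = 0.4). At EB day 10 Myl4 made up 69.0% in flox and 54.2% and 47.0% in KI. The Myl7 share went the other way there, at 90.8% in flox and 97.6% and 95.4% in KI. These 9 tests of shares were not adjusted, since none can pass a threshold of 0.05.

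**Figure D5:**
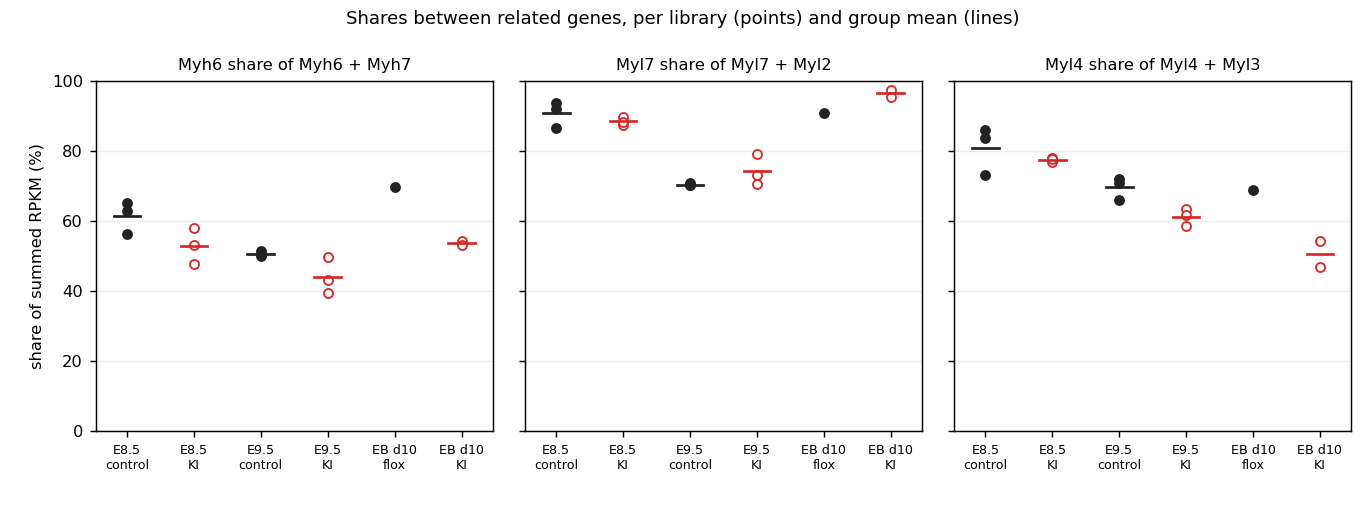
Share of the first gene in the summed deposited RPKM of a pair (percent, axis from 0) for each library of the embryo and EB day 10 groups, with filled points for control or flox, open points for KI and lines at group means. The mean Myl7 share is 90.8% in E8.5 controls and 70.5% in E9.5 controls.

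In neural cultures the summed level of the 10 genes averaged between 3.27 and 10.97 CPM per group, and the genes called were lower in KI. At day 8, 4 of the 9 genes tested were called lower, against 13.2% of the 16439 genes tested, and Myl2 had too few reads for the test. Tnni1 was at 5.33 and 5.79 CPM in flox and at 0.345 and 0.123 CPM in KI, a log2 fold change of -4.56 (SE 0.30, adjusted p = 9.6e-07 by edgeR). Myl7 was at 1.09 CPM in each flox library and at 0.046 and 0.041 CPM in KI, where 2 reads were counted in each, so the ratio of flox to KI was 25.2 with an exact 95% counting interval from 9.56 to 94.3. Tnnt2 and Myl4 had log2 fold changes of -1.78 and -1.37 (SE 0.48 and 0.41, adjusted p = 0.0197 and 0.0337 by edgeR) at levels under 0.5 CPM. Without either flox library, or without KI clone 48, only 2 of the 4 calls were made, those of Myl7 and Tnni1, and DESeq2 made the same 2. Without clone 27 the call of Myl4 was lost. At day 16, 2 of 9 were called lower, against 19.7% of all genes, a similar share. Tnni1 was at 0.454 and 0.385 CPM in flox and at 0.074 and 0.050 CPM in KI, and Tnnt2 at 0.309 and 0.359 CPM in flox and at 0.074 and 0.084 CPM in KI. Their log2 fold changes were -2.54 and -1.83 (SE 0.52 and 0.48, adjusted p = 0.00182 and 0.00809 by edgeR), on 3 to 25 reads a library, and DESeq2 called Tnni1 alone. The effect at day 16 minus that at day 8 was called for 0 of 9 genes by edgeR and by DESeq2, against 33.2% of all genes, with 3 (Myh6, Myh7 and Tnni1) at an unadjusted p under 0.05. With the flox replicate or KI clone number as a block, 2 were called. Other markers also moved in these cultures, and their part in the results was not tested. At day 8, all 9 endothelial markers were called lower in KI (149.6 to 150.2 CPM summed in flox, 31.7 to 38.2 in KI), as were 10 of 11 extraembryonic endoderm markers tested (456 to 463.5 and 191 to 215 CPM), 10 of 12 neuronal markers (2341 to 2342 and 1446 to 1697 CPM) and 5 of 8 blood markers (21.1 to 21.2 and 3.72 to 3.93 CPM). Of 10 neural progenitor markers at day 8, 5 were called higher and 3 lower, with a median log2 fold change of 0.16. Over all genes, 1036 of 16439 were called higher there. At day 16, 7 of 9 smooth muscle markers were called lower and 12 of 12 neuronal markers higher, against 27.1% of all genes called higher.

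In TE and ExEn cultures, genes were called in both directions. In TE, 5 of 10 genes were called lower in KI, against 24.2% of the 15532 genes tested, and 1 was called higher, against 26.7%. The gene called higher was Myl4, at 11.5 and 12.6 CPM in flox and at 31.5 and 29.8 CPM in KI, a log2 fold change of 1.38 (SE 0.19, adjusted p = 3.21e-05 by edgeR). Myh7 was at 21.2 and 18.97 CPM in flox and at 2.18 and 2.21 CPM in KI, a log2 fold change of -3.16 (SE 0.16, adjusted p = 3.04e-09 by edgeR). Tnnt2 was at 3.91 and 4.68 CPM in flox and at 0.291 and 0.508 CPM in KI, a log2 fold change of -3.38 (SE 0.51, adjusted p = 7.69e-05 by edgeR). The other 3 called lower were Myh6 and Myl3, at 1.42 CPM or less in KI, and Tnni1, which had 2 reads and 1 read in the KI libraries against 6 and 16 in flox (ratio of flox to KI 8.02, exact 95% counting interval 2.41 to 41.9). In TE, Myl2 and Myl7 were at 5 reads or fewer in every library. Leaving out each TE library in turn, 4 or 5 genes were called, always with Myh7, Myl4 and Tnnt2. Myh6 was lost without flox replicate 1 or clone 27, Myl3 without flox replicate 2, and Tnni1 without flox replicate 2 or either clone. In the same libraries 9 of 10 pluripotent markers were called lower in KI (1589 to 1595 CPM summed in flox, 439.8 to 635 in KI) and 8 of 10 trophectoderm markers higher (3222 to 3295 and 5492 to 5704 CPM). Of 7 skeletal muscle markers tested, 4 were called lower and 0 higher (41.8 to 43.9 and 7.04 to 7.05 CPM). The part of these markers in the results was not tested.

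In ExEn, 4 of 10 genes were called lower in KI, against 17.4% of all genes, and 2 were called higher, against 18.1%. Myl2 was found at 0 and 2 reads in flox and at 72 and 86 reads in KI, 3.38 and 4.34 CPM, a ratio of 77.3 with an exact 95% counting interval from 21.0 to 644 (edgeR adjusted p = 5.76e-05). Both KI clones showed it, and the same gene had fewer reads in KI than in flox at EB day 10. Myl4 was at 0.484 and 1.07 CPM in flox and at 3.28 and 2.02 CPM in KI, a log2 fold change of 1.75 (SE 0.34, adjusted p = 0.00111 by edgeR). Lower in KI were Myl3, Tnni1, Tnnt2 and Myh7, with log2 fold changes of -3.64, -3.06, -1.59 and -1.45 (edgeR, adjusted p = 0.000638, 0.0037, 0.0196 and 2.79e-06). Myh7 was at 23.6 and 25.9 CPM in flox and at 8.91 and 9.55 CPM in KI. Calls of Myh7, Myl2, Myl3 and Myl4 were made whichever ExEn library was left out, while that of Tnnt2 was lost without either flox library or clone 27, and that of Tnni1 without clone 27. The effect of KI in TE minus that in ExEn was called for 1 of 10 genes, Myh7 (-1.70, SE 0.22, adjusted p = 3.72e-05 by edgeR), against 35.3% of all genes in either direction. With the flox replicate or KI clone number as a block it was called for 2 of 10 (with Tnnt2). In ExEn all 12 extraembryonic endoderm markers were called lower in KI, with a median log2 fold change of -3.11 (5559 to 5660 CPM summed in flox, 3185 to 3480 in KI), and their part in the results was not tested.

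Among 25 other sarcomere genes, those called were lower at EB day 10 and higher in embryos. In EBs of day 10, 13 of the 23 tested were called lower in KI and 0 higher, against 4.96% and 5.49% of all genes, with a median log2 fold change of -1.62 against 0.01 over all genes. The largest decreases were in Mybphl, a myosin-binding protein of atrial muscle, Tcap, which caps titin at the Z-disc, and Tnni3, cardiac troponin I, at -4.99, -4.47 and -4.09 (SE 0.90, 0.84 and 0.37, adjusted p = 0.0169, 0.0249 and 0.00175 by edgeR). Tnni3 was at 32.5 CPM in flox and between 1.25 and 2.61 CPM in KI. DESeq2 called 11 of the list lower, without Mybphl and Tcap. Fits without a clone held 1 library on each side at day 10, so calls from them are not counted for this list. With the day 10 libraries alone edgeR called 2 of 22 lower (Actc1 and Ldb3) and DESeq2 11. At E9.5, 15 of 22 were called higher and 0 lower, against 14.6% and 14.9% of all genes, with a median of 1.19. The count was 9 without KI replicate 1 or control replicate 2 and 8 without control replicate 1. Lmod2 and Myom1, which act in thin filament length and at the M-band, led with log2 fold changes of 1.78 and 1.75 (SE 0.55 and 0.32, adjusted p = 0.0201 and 0.00298 by edgeR), followed by Nebl at 1.55. The call of Lmod2 was lost without control replicate 1, control replicate 3 or KI replicate 1. At E8.5, 2 of 22 were called, Lmod2 (2.23, adjusted p = 0.0338 by edgeR) and Tpm2 (0.40, adjusted p = 0.0294 by edgeR), both higher, against 3.63% of all genes. Leaving out 1 library, that count ran from 0 (without control replicate 1 or 3) to 3 (without control replicate 2), and DESeq2 called 4. This list was chosen with earlier results of these data known.

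Of 14 genes of calcium handling and conduction, some were called in each direction. In the day 10 EBs, 7 of 13 tested were called lower (4.96% of all genes) and 1 higher (5.49%), with a median of -1.77. With the day 10 libraries alone, edgeR called 2 of 12 lower (Hcn4 and Ryr2) and 0 higher, and DESeq2 4 lower and 0 higher, without Casq1 (it gave Trdn no adjusted p). Casq1, a calcium store protein of striated muscle, fell by 3.25, Trdn, its partner at the release unit, fell by 3.68, and Hcn4, the pacemaker channel, fell by 2.13 on the log2 scale (SE 0.38, 0.86 and 0.21, adjusted p = 0.00354, 0.0469 and 0.00201 by edgeR). The gene called higher was Nppb, the ventricular natriuretic peptide, at 1.16 CPM in flox and 3.33 to 4.24 CPM in KI (log2 fold change 1.70, SE 0.41, adjusted p = 0.0437 by edgeR). Nppb and Nppa were thus both above flox in both KI clones, as were 36.9% of the genes tested. The call of Nppb was lost with DESeq2 and with the day 10 libraries alone. At E9.5, 5 of 11 were called higher (14.6% of all genes) and 1 lower (14.9%), with a median of 0.50. The sodium-calcium exchanger Slc8a1, the calcium release channel Ryr2 and Hcn4 rose by 1.47, 1.46 and 1.02 (SE 0.24, 0.21 and 0.17, adjusted p = 0.00172, 7.14e-05 and 0.000232 by edgeR), while Pln, which restrains the calcium pump, fell from 0.956 to 0.187 CPM (adjusted p = 0.0383 by edgeR). The call of Pln was lost on leaving out any library of the comparison except KI replicate 3.

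Of 14 cardiac transcription factors, 3 were called at EB day 10 and 12 at E9.5. In the EBs, 2 of 14 were called lower and 1 higher, against 4.96% and 5.49% of all genes, with a median log2 fold change of -0.42, and their summed level was 1625 CPM in flox and 1569 to 1644 CPM in KI. Gata5 was at 44.7 CPM in flox and 2.97 to 3.33 CPM in KI (-3.82, SE 0.32, adjusted p = 0.00134 by edgeR), and Tbx5 at 52.0 CPM in flox and 7.52 to 12.6 CPM in KI (-2.37, SE 0.28, adjusted p = 0.0037 by edgeR). Hand2 was higher in KI, at 228 CPM in flox and 376 to 462 CPM in KI (0.88, SE 0.16, adjusted p = 0.0191 by edgeR). Nkx2-5, Gata4 and Mef2c had log2 fold changes of -0.86, -0.39 and -0.61 that were not called (adjusted p = 0.0637, 0.132 and 0.149 by edgeR). Fits without a clone, with 1 library on each side at day 10, are not counted. With the day 10 libraries alone edgeR called Gata5 only, while DESeq2 called the same 3 factors. At E9.5, 12 of 14 were called higher and 0 lower, against 14.6% and 14.9% of all genes, with a median of 0.97 and a summed level of 352.5 CPM in controls against 713 in KI. Hand1, Nkx2-5 and Gata6 led with 2.01, 2.00 and 1.70 (SE 0.31, 0.20 and 0.10, adjusted p = 0.00189, 3.54e-06 and 1.22e-09 by edgeR). Gata4, Tbx5 and Mef2c rose by 1.49, 0.98 and 0.95. At E8.5, 7 of 14 were called higher, against 3.63% of all genes, among them Hand1, Tbx20 and Isl1 at 1.32, 1.12 and 0.86 (adjusted p = 0.0443, 0.00162 and 0.000322 by edgeR), while 0 of the 10 sarcomere and Nppa genes were. DESeq2 called 9 of these factors at E8.5. Without control replicate 1, control replicate 3 or KI replicate 1 the count was 4, and the call of Hand1 was lost whichever library was left out.

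Marker lists of other cell types moved with the same groups, and their part in the results was not tested. Of the 14 skeletal muscle markers, 7 of 11 tested were called lower and 0 higher in E9.5 KI, against 14.9% and 14.6% of all genes, with a summed level of 28.0 to 33.8 CPM in controls and 8.40 to 11.5 CPM in KI. The defining markers Myog and Myf5 averaged 3.11 and 2.71 CPM in E9.5 controls and 0.059 and 0.289 CPM in KI. At EB day 10 the skeletal list summed to 11.1 CPM in flox and 3.73 to 6.96 CPM in KI, with 0 of 9 tested called by edgeR (5 at an unadjusted p under 0.05) and 0 of 6 by DESeq2 in the fit of day 10 alone. For this and the other marker lists, day 10 fits without a clone held 1 library on each side and are not counted. Myod1 and Myf5, named as factors that define the lineage, were at 0.194 and 0.272 CPM in flox and at 0 in KI. Smooth muscle markers, some of which the embryonic heart also expresses, had 5 of 9 called higher in E9.5 KI (2 without control replicate 2 or 3, 3 without KI replicate 1), from 273 to 284 CPM in controls to 469 to 655 CPM in KI. In day 10 EBs the smooth muscle list stood at 1422 CPM in flox and 2654 to 2979 CPM in KI, with 1 of 9 called higher (Myl9) and a median log2 fold change of 0.53. With the day 10 libraries alone edgeR called 0 of this list and DESeq2 3. Acta2, named after its values were seen, was at 794 CPM in flox and 1853 to 1935 CPM in KI and was not called (adjusted p = 0.0937 by edgeR). Neuronal markers, 9 of 12 called lower in E9.5 KI, summed to 341 to 499 CPM in controls and 139 to 146 CPM in KI. Neural progenitor markers, 9 of 10 called lower there, summed to 861 to 1125 CPM in controls and 485 to 597 CPM in KI. Blood markers summed to 4873 to 13000 CPM in E9.5 controls and 933 to 4659 CPM in KI, with 1 of 10 called lower (Klf1). That count was 10 without KI replicate 3, 0 without control replicate 3, KI replicate 1 or KI replicate 2, and 7 with DESeq2. At E8.5 the blood list summed to 957 to 1956 CPM in controls and 242 to 328 CPM in KI, with a median log2 fold change of -2.38. None of the 10 was called there by edgeR, 8 had an unadjusted p under 0.05 and DESeq2 called 6. Of the extraembryonic endoderm markers, which include Gata4 and Gata6, 5 of 12 were called higher in KI at E9.5 (8 with DESeq2; 691 to 828 CPM in controls, 999.6 to 1127 CPM in KI) and 8 of 12 at EB day 10, against 5.49% of all genes (2358 CPM in flox, 4919 to 5186 CPM in KI), where the fit of day 10 alone called 1 by edgeR and 8 by DESeq2. Trophectoderm markers, which include Hand1, had 5 of 10 called higher in E9.5 KI (184 to 394.5 CPM in controls, 612 to 643 CPM in KI). At EB day 10 they summed to 754 CPM in flox and 1164 to 1797 CPM in KI, with 2 of 9 tested called higher, against 5.49% of all genes. With the day 10 libraries alone, edgeR called 0 of them and DESeq2 4. Endothelial markers had 4 of 9 called higher in E9.5 KI (334.5 to 371.5 CPM in controls, 436 to 495 CPM in KI), and 6 with DESeq2. At E8.5, 5 of 9 endothelial markers were called higher, against 3.63% of all genes (297 to 355 CPM in controls, 402 to 580.4 CPM in KI), with 2 of 9 without control replicate 3 or KI replicate 3 and 8 of 9 without KI replicate 2 or with DESeq2. Extraembryonic endoderm markers had 4 of 12 called higher at E8.5, and 2 without control replicate 1 or 3 or KI replicate 1 or 3. Neural progenitor markers had 3 of 10 called lower there, against 1.83% of all genes, and 0 to 2 on leaving out a library. At EB day 10, 3 of 10 pluripotent markers were called higher and 0 lower (78.6 CPM in flox, 121.5 to 159 CPM in KI). Of 11 non-muscle cytoskeleton genes, 5 were called higher and 1 lower there. Of 10 blood markers, 2 were called lower and 0 higher (757.6 CPM in flox, 448 to 488 CPM in KI).

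Likeness was measured by Pearson's r of log2(CPM + 0.5), averaged per group, over the 18 groups, which differ in tissue and depth, so it is a description. Of 16550 genes searched, those most like the mean pattern of the 10 were a transcript with no symbol in the table used (0.985), Csrp3 (0.982), a muscle LIM protein of the Z-disc, Mylk3 (0.978), the cardiac myosin light chain kinase, Mhrt (0.976) and Oit3 (0.971). Mhrt is transcribed antisense to Myh7, and without stated strand use their reads cannot be told apart. Within the 10, Myh6 and Tnnt2 were the most alike (0.975), followed by Myh7 and Tnnt2 (0.955), and Myl7 and Tnni1 were each other's most like gene (0.93). Nppa was the least alike, with its highest value at 0.727 for Myh7 and its lowest at 0.441 for Myl4.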

How the data were processed

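RNA-seq tables of 37 mouse libraries in 18 groups were used. Another 63 of the 100 samples of the series were not analysed here. Per the file headers, the authors deposited, for each of 29082 transcripts, a raw read count and an RPKM (reads per kilobase of transcript and mega-read). The submitters' processing notes name bcl2fastq, STAR, Bowtie2, SICER 1.1 and the build mm9, without roles. Whether counting used strand is not given in the sources used here.

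The transcript with the most reads stood for each gene (a median of 71.8% of reads kept). Of the accessions, 646 matched no symbol and hold 1.25% to 2.13% of reads. The unit of CPM is the gene-level total. Counts were fitted per experiment with edgeR 4.0.16 (TMM, quasi-likelihood test, filtered for low counts, R 4.3.3), with Benjamini-Hochberg adjustment over all genes and a threshold of 0.05. DESeq2 1.42.0, RLE scaling, no filter, sums over transcripts, only the libraries compared, a minimum 2-fold change, a replicate block and leaving out each library were the alternatives. A fit of EB day 10 alone, and the gene lists without each library and with DESeq2, were added after seeing the data. Counting intervals (exact) and the floor of 3 reads cover counting error only.

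The 10 genes and all lists were chosen with earlier results of these data known. From each list at most 3 called genes per direction, those with the largest change, are named, plus Nkx2-5, Gata4, Tbx5 and Mef2c. Marker genes of other cell types, and genes whose call an alternative changed, were named after their values were seen. Deviations of same-numbered E8.5 control and KI embryos from their group means were correlated (r = 0.3, 0.35 and 0.15 over genes). At E9.5 the values were between 0.00 and 0.17. Deviations from a mean of 3 libraries depend on each other, so these values do not settle whether the numbers pair the embryos. KI libraries of 1 clone number come from the same line.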

Additional observations from a re-analysis of the deposited data

Results flagged for a closer look

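The effect of KI on Myh7 differed between the TE and ExEn cultures by the test of the difference itself, -1.70 on the log2 scale (SE 0.22, edgeR adjusted p = 3.72e-05). It was -3.16 in TE and -1.45 in ExEn, and in each culture both KI libraries lay below both flox libraries. The same was true of 39.5% of the genes tested in TE and of 31.7% in ExEn. The difference between TE and ExEn was called, in either direction, for 35.3% of all genes.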

How the results depend on the processing

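At E9.5 and EB day 10 none of the 120 and 80 alternative fold changes of the 10 genes reversed. For the KI effect at E8.5, Nppa went to 1.14 without control replicate 2, and Myl2 and Myl7 went to -0.02 and -0.11 without KI replicate 1. In the other comparisons, 42 of 893 alternative values of genes that were not called had the other sign, in 9 comparisons and all on leaving out a library. For the effect averaged over EB days Actn2 ran from -1.43 to 1.70 and Myh6 from -2.41 to 0.66, and for E9.5 minus E8.5 Nppa ran from -0.34 to 1.79 and Myl2 from -0.09 to 1.16. Leaving out 1 library, the E8.5 values ran from -0.02 to 1.22 for Myl2, from -0.11 to 0.44 for Myl7 and from -0.99 to 1.14 for Nppa. Counts of the 10 genes called, leaving out 1 library, ran from 0 to 1 at E8.5, from 4 to 8 at E9.5, from 0 to 3 between control stages, from 2 to 3 in neural cultures at day 8, from 0 to 2 for the neural difference, from 1 to 2 for TE minus ExEn and from 0 to 6 for the averaged EB effect, and stayed at 0 between KI stages. DESeq2 called 2 between KI stages, 2 at neural day 8, 1 at neural day 16 and 4 for the averaged EB effect, which gave 3 without the ESC libraries. Without the filter on low counts there were 0 between KI stages, 1 for the neural difference and 2 for TE minus ExEn. Using only the libraries compared gave 5 between control stages and 8 of 9 tested in ExEn (with Myh6 and Myl7), where RLE scaling or no filter gave 7, and sums over transcripts gave 2 for the neural difference. With the day 10 libraries alone, chosen after seeing the data, edgeR called 4 at EB day 10, among 38 genes in all, and DESeq2 9. The causes were not tested.

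With the replicate block, the counts were 0 at E8.5, 8 at E9.5, 2 for the neural difference and 2 for TE minus ExEn. The block moved the genes called in all at E8.5 from 843 to 1304. No paired analysis was possible for the stage comparisons or for EB day 10 because numbers do not cross stages and flox has 1 library. Over all genes, leaving out a library moved the E8.5 count to between 363 and 755 and that of EB day 10 from 1732 to between 4548 and 4952. Counts per library limit values near 3 reads. With the total of all table rows as denominator, totals were 1.34 to 1.42 times larger.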
